A study of Mus musculus with 40 samples.

Results

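The comparison set ganglia taken 8 to 10 days after a nerve injury against ganglia taken 6 and 7 days after it. Its members are 13 of the study's 40 arrays, chosen by their labelled time alone: 7 in the later window (3 at 8 days, 2 at 9 days and 2 at 10 days) and 6 in the earlier window (3 at 6 days and 3 at 7 days). Each array measured RNA of dorsal root ganglia, the clusters of sensory nerve cell bodies beside the spinal cord, from adult male C57BL/6J mice of 9 to 10 weeks. All 13 arrays are of mice with spared nerve injury, in which 2 branches of the sciatic nerve, tibial and common peroneal, are tied and transected while the sural branch stays whole. The 7 naive arrays, of ganglia from the same strain, serve as the level before injury. Per the series' design text, the study followed expression beside pain behaviour over the first 10 days. Whether 1 mouse or several gave the RNA of an array is not stated, so the p-values rest on the variation among arrays, some of it possibly technical. The ganglion holds cut and uncut neurons together, with satellite glia, Schwann cells, vessels and immune cells.

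After a peripheral nerve is cut, its neurons switch on a growth and stress programme within days, led by transcription factors such as Atf3 and Jun and by neuropeptides such as galanin and neuropeptide Y. Macrophages and other immune cells gather around the cell bodies, while the Schwann cells and satellite glia of the ganglion change state. Nearly every tissue, ganglia included, also carries a daily clock, in which Clock and Arntl (also called Bmal1) drive genes that hold E-box motifs, among them Dbp, Ciart, Nr1d1 and the Per genes, several of which repress that drive in turn.

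Of 10519 genes tested with limma, 2 passed a Benjamini-Hochberg (BH) adjusted p of 0.05 between the windows, which is 0.019% of the genes. Both were lower in the later window: Dbp, a clock output transcription factor, fell 2.45-fold, and Cstdc4, a cystatin-domain gene of the stefin A family, fell 1.49-fold. No gene rose. At an unadjusted p under 0.05, 147 genes (1.4%) lay higher and 142 (1.35%) lower, 2.75% together. Differences were small throughout. The median absolute difference was 0.06 on the log2 scale, 99.68% of genes differed by less than 0.5, and Dbp was the only gene past 1. The 95% interval of a difference reached 0.21 to either side in the median gene, so changes much smaller than that were not detectable with these arrays. Larger changes could be missed too, since the interval is not adjusted for the number of genes. Angptl4, at 0.60 ± 0.12, did not pass (limma adjusted p = 0.0816). Arrays of the windows did not overlap in 3 genes (0.0285%). They were Cstdc4 and Mak16, a ribosome biogenesis factor, with every later array below every earlier one (2 genes, 0.019%), and Arhgef3, with every later array above (1 gene, 0.00951%). A second probe of Mak16, nearly as bright, lay the other way, at 0.08 beside -0.27 for the probe used.

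Within the windows no gene passed the test. Between day 7 and day 6, 0 of 10519 genes passed in limma, with 455 (4.33%) at an unadjusted p under 0.05, and between days 9 and 10 and day 8, 0 passed, with 398 (3.78%) unadjusted. A moderated F-test for any difference among the 5 times from 6 to 10 days called 2 genes (0.019%), again Dbp and Cstdc4, with 274 (2.6%) at an unadjusted p under 0.05. With the 13 arrays alone taken as 2 pooled groups, so that the spread between days counts as error, 0 genes passed in limma (287 at an unadjusted p under 0.05) and Dbp had an adjusted p of 0.497. Against day 7 alone 0 passed (192 unadjusted), and Dbp had an adjusted p of 0.0586.

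The arrays differed in ways the windows do not explain. The first principal component of the 13 arrays carried 42.47% of the variance and set apart the arrays labelled replicate 1 of 7, 8, 9 and 10 days, whose sample-name numbers run from 23 to 26. Their scores lay between 17.8 and 22.4, and those of the other 9 arrays at -1.88 or below. The earlier window holds 1 of these 4 arrays and the later window 3. The 6 genes of greatest weight on the component are of the skeletal muscle list, among them Acta1. Of the first 20, 12 are not. Among the 13 arrays the mean muscle level was highest on 8-day replicate 1 (10.97) and next on 9-day replicate 1 (8.89). It was 7.25 on 7-day replicate 1 and 7.90 on 10-day replicate 1, below 8.29 on 7-day replicate 2, so it did not set all 4 arrays apart. The part of muscle in the component was not tested. Without the 4 arrays, 3 genes passed: Dbp, Nr1d1 (adjusted p = 0.0061) and Ciart (adjusted p = 0.0262), while Cstdc4 had an adjusted p of 0.104. For 10-day replicate 2 the detection p-values stand under a name with 216 h, and the signals under 240 h. Both times are in the later window, so the differences between the windows stay as they are and their errors change. With that array counted at 9 days, the main comparison called 3 genes in place of 2, with Ciart added (adjusted p = 0.0332), and the F-test 8 in place of 2. Median raw signals lay between 154 and 218.4 intensity units. Neuronal markers were well above the detection level of 6.85, with Rbfox3, a nuclear marker of neurons, at 13.27 and 13.41 and Scn10a, a nociceptor sodium channel, at 11.45 and 11.46 in the earlier and later windows. Gad1, of spinal cord inhibitory neurons, lay below the detection level on all 13 arrays. It was the only 1 of 6 measured genes of the spinal cord and oligodendrocyte list to do so. Slc32a1, of the same list, reached 6.97 in the later window.

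The clock genes carried the largest difference. Dbp read 11.49, 11.44 and 11.52 on the 6-day arrays and 11.42, 11.64 and 11.30 on the 7-day arrays (log2 signal). It read 10.00, 9.56 and 9.36 at 8 days, 10.38 and 10.11 at 9 days, and 11.42 and 10.40 at 10 days. Of the 7 later arrays, 6 lay below every earlier array, and 10-day replicate 1 lay within the earlier range. The difference was -1.29 ± 0.19 (SE of the fit, n = 7 and 6, limma adjusted p = 0.00106). Dbp was not low throughout the later window: its group mean was 9.64 at 8 days, 10.24 at 9 days and 10.91 at 10 days, beside 10.91 on the naive arrays. With days 9 and 10 alone as the later window, Dbp did not pass the threshold. Its lowest group mean of the whole series was at 16 h, 9.04, and its highest at 1 day, 11.50. Against naive, Dbp differed by 0.56 in the earlier window and by -0.74 in the later one. The hour of day at which ganglia were taken is not given in the sources used here.

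Ciart, a repressor of Clock and Arntl activity, ranged from 7.36 through a median of 7.87 to 7.99 in the earlier window and from 6.89 through 7.00 to 7.76 in the later one. Of the 7 later arrays, 6 lay below every earlier one, and 10-day replicate 1 was again among the earlier values. Its difference was -0.70 ± 0.14, which missed the threshold (limma adjusted p = 0.0594), and a second probe gave -0.66. Nr1d1, the nuclear receptor that represses Arntl, had medians of 7.85 and 7.43 and a difference of -0.47 ± 0.10 (adjusted p = 0.131). Its second probe, dimmer, gave -0.26. Arntl, the positive arm of the clock, lay the other way: 6.49, 6.66 and 6.87 as lowest, median and highest in the earlier window and 6.77, 7.15 and 7.67 in the later, with a difference of 0.46 ± 0.13 (adjusted p = 0.744). Arntl is near the limit of measurement, above the detection level on 2 of 6 earlier and 6 of 7 later arrays.

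The upstream windows of Dbp and Ciart are shown because these genes had the largest differences of the list and are textbook targets of the E-box. The sequences are RefSeq's for GRCm38.p6, 250 bases before to 50 after the gene start, 5′ to 3′ along the gene, with capitals marking the E-box CACGTG, which reads the same on both strands. Dbp lies at chr7:45704997-45705296 (plus strand) and Ciart at chr3:95882179-95882478 (minus strand).
Dbp: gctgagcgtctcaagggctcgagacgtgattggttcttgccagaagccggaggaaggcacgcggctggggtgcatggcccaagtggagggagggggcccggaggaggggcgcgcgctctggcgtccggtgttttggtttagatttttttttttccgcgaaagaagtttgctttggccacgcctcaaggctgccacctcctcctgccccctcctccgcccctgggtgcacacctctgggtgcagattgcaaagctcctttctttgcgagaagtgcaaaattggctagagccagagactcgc
Ciart: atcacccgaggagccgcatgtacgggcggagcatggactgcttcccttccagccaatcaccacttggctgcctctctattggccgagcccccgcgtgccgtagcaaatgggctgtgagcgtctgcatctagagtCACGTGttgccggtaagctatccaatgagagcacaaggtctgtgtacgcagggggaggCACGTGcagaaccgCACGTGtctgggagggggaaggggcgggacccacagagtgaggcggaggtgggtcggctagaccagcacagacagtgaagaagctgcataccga
The Ciart window holds 3 copies and the Dbp window 0. Across 32851 windows in the table, 2349 (7.15%) hold at least 1 copy and 29 (0.0883%) hold 3 or more. The D-box forms TTATGTAA and TTATGCAA, read on both strands, are in neither window and in 0.938% and 0.743% of all windows. Each window of Nr1d1, Arntl (2 windows) and Cstdc4, searched as well, holds 0 copies of the E-box and of both D-box forms. A match describes the letters only.

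Of the 16 clock list genes measured, none rose, Dbp fell, and 7 (43.8%) had an unadjusted p under 0.05 against 2.75% of all genes. The median difference of the list was -0.16, beside 0.01 over all genes tested. Besides Dbp, Ciart, Nr1d1 and Arntl, the 7 include Per3 (-0.21 ± 0.10), a period repressor, Bhlhe40 (-0.34 ± 0.16), which binds E-boxes as a repressor, and Clock (0.15 ± 0.07), the partner of Arntl. These 3, like Per2 (-0.27 ± 0.14, unadjusted p = 0.0548), were named after their values were seen, and none has an adjusted p under 0.05. Per1 (0.00 ± 0.15) and Cry2 (-0.05 ± 0.15) lay near 0. The clock genes of the negative arm and output were thus mostly lower, and Clock and Arntl higher, but only Dbp did so beyond the threshold.

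**Figure D1:**
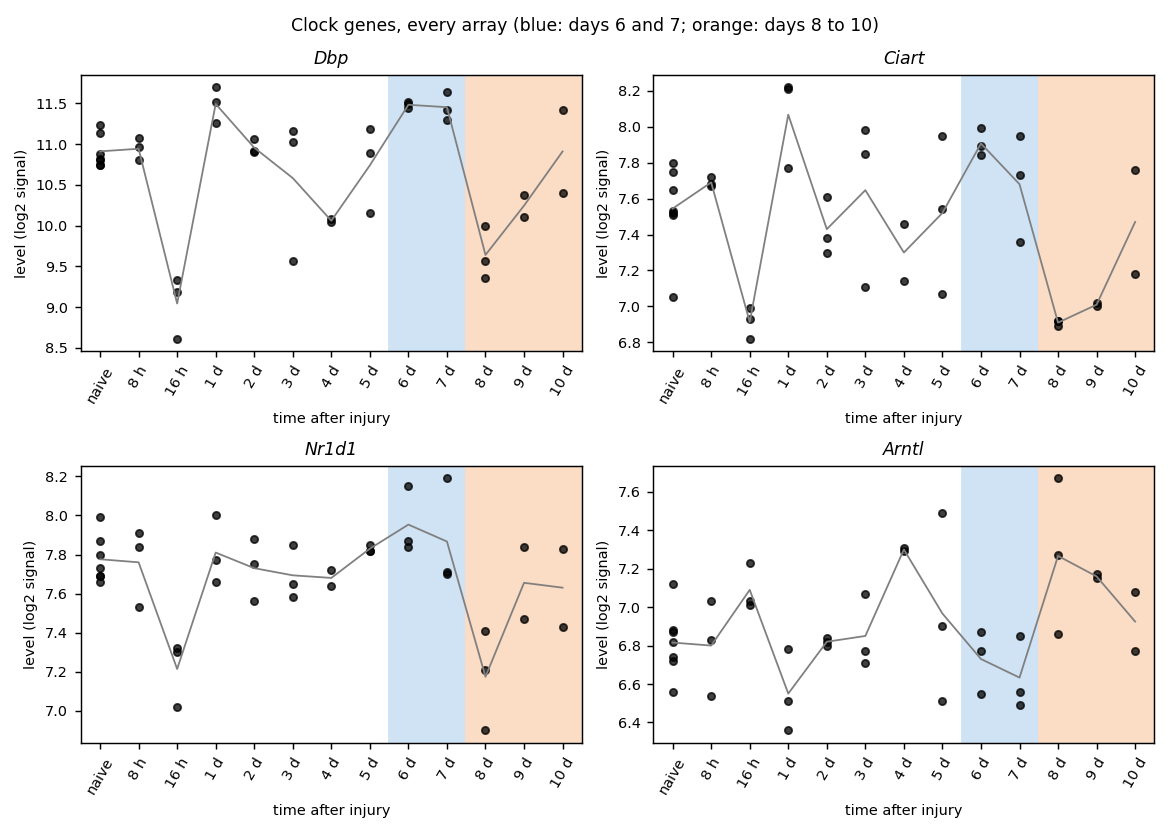
Level (log2 signal, vertical axes) of Dbp, Ciart, Nr1d1 and Arntl on every array against time after injury, with the group means joined by a line; blue marks days 6 and 7 and orange days 8 to 10. Dbp lies between 11.30 and 11.64 on the blue arrays and between 9.36 and 11.42 on the orange ones, and 16 h is the other time with low values.

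Cstdc4 belongs to a cluster of intracellular cysteine protease inhibitors that neutrophils and other myeloid cells of the mouse express. It read 8.93, 8.91 and 9.10 at 6 days, 8.66, 8.72 and 8.83 at 7 days, 8.58, 8.62 and 8.41 at 8 days, 8.14 and 7.87 at 9 days, and 8.06 and 8.26 at 10 days. No later array reached the lowest earlier one. The difference was -0.58 ± 0.10 (n = 7 and 6, limma adjusted p = 0.0105). No naive array lay above the detection level of 6.85, and the group mean was 7.95 at 2 days and 9.20 at 5 days, the highest of the series. Both windows thus came after the highest mean, the earlier at least 4.01-fold and the later at least 2.68-fold above naive, taking naive values at the detection level. Cstdc4 lost its call in 8 of 35 alternatives: without 6-day replicate 3, without 9-day replicate 2, without the 4 arrays that stand apart, against day 7 alone, for day 8 alone, and in all 3 fits to the 13 arrays alone. Its values over the single omissions ran from -0.64 to -0.51. Csta2, another stefin A gene, lay lower as well (-0.48 ± 0.17, unadjusted p = 0.00699, not past the threshold), and ranged from 7.33 to 8.52 and then 6.98 to 8.36. The genes of this family are nearly alike in sequence, and whether their probes share transcripts was not tested. On 10-day replicate 1 the neutrophil and mast cell list had its highest mean of the 13 arrays (9.13), and Cstdc4 was at 8.06. On the other later arrays both lay below every earlier one. On the naive arrays S100a8, a gene of neutrophils, averaged 11.85, while Cstdc4 was below the detection level. Which cells gave the Cstdc4 signal was not tested. In bulk tissue, fewer cells of a type and less RNA per cell cannot be told apart.

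Other injury-raised genes among the 10 smallest p-values per direction had the same order of values without passing. Reg1, a secreted C-type lectin protein, had medians of 7.52 and 7.15 (-0.36 ± 0.08, adjusted p = 0.154), and Wfdc3, which encodes a protease inhibitor-type WAP domain, 8.63 and 8.10 (-0.63 ± 0.16, adjusted p = 0.413). Their windows overlapped. Reg1, which no naive array measured above the detection level, was at least 1.52-fold above naive in the earlier and at least 1.18-fold in the later window. Wfdc3 was 1.87 and 1.24 above naive on the log2 scale.

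**Figure D2:**
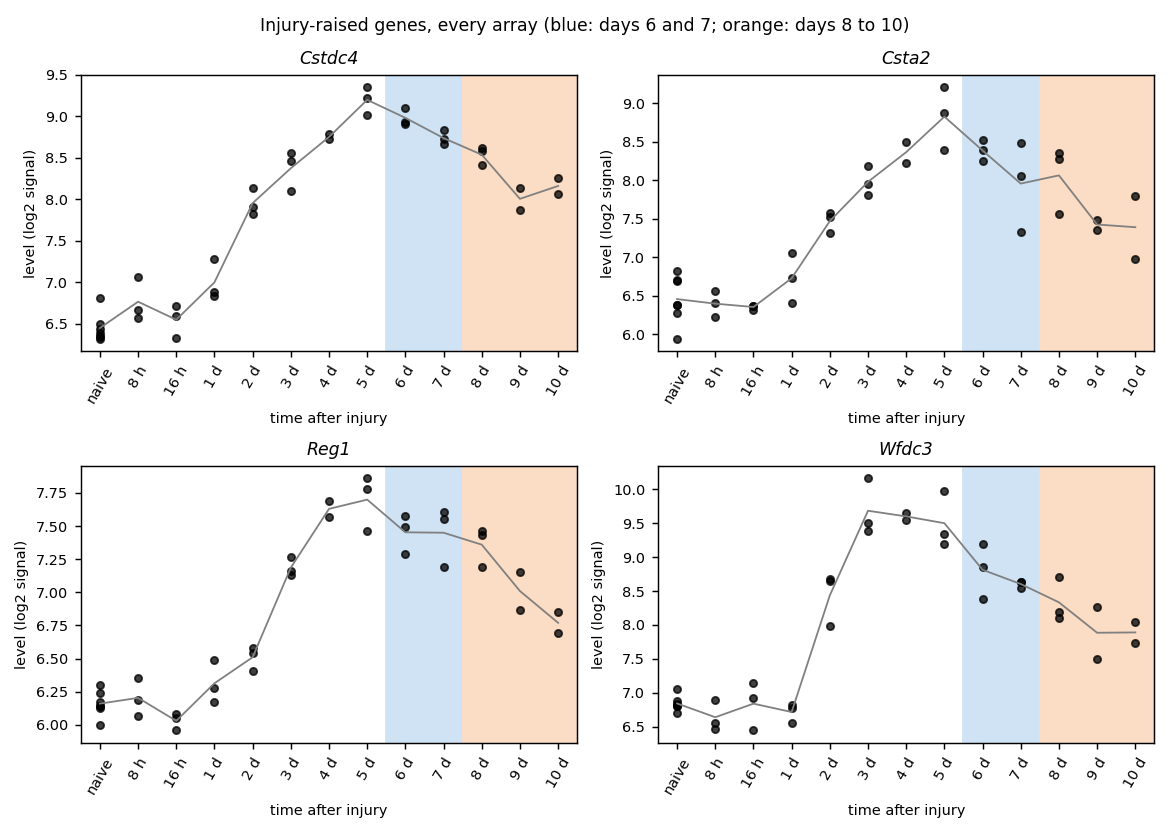
Level (log2 signal, vertical axes) of Cstdc4, Csta2, Reg1 and Wfdc3 on every array against time after injury, with group means joined by a line; blue marks days 6 and 7 and orange days 8 to 10. Cstdc4 falls from group means of 8.98 and 8.74 at 6 and 7 days to 8.00 and 8.16 at 9 and 10 days, and all 4 genes stay above their naive means.

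No difference between the windows was detected in the nerve injury programme. None of its 33 measured genes passed the test, 23 lay lower and 10 higher, and the median difference was -0.10. Only Anxa1, annexin A1, had an unadjusted p under 0.05 (-0.23 ± 0.10, unadjusted p = 0.0313), which is 3.03% of the list against 2.75% of all genes. The list's median above naive was 1.24 in the earlier and 1.05 in the later window. For the nerve injury and regeneration list the median difference was 0.05 with day 8 alone as the later window and -0.17 with days 9 and 10 alone. Within the later window, the list's median for days 9 and 10 minus day 8 was -0.26, larger in size than the difference between the windows. For day 7 minus day 6 it was 0.06.

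Single genes of the programme were close between the pooled windows, and their 95% intervals bound what could have been missed in that comparison. Atf3 ranged from 10.72 to 11.04 and then from 10.49 to 11.26, a difference of -0.05 with an interval from -0.304 to 0.214. It stood 3.62 and 3.57 above naive. Npy, neuropeptide Y, ranged from 12.22 to 13.10 and from 12.55 to 13.03 (0.22, interval -0.183 to 0.622), 5.27 and 5.49 above naive. Sprr1a, a regeneration-associated protein, differed by -0.16 (interval -0.526 to 0.209), and the orphan receptor gene Gpr151 by -0.13 (interval -0.384 to 0.119). Gal, galanin, differed by -0.21 (interval -0.438 to 0.0152) and Cckbr, the cholecystokinin B receptor, by 0.01 (interval -0.368 to 0.38). Csf1, the macrophage growth factor made by cut neurons, differed by -0.22 (interval -0.482 to 0.0321), the growth cone gene Gap43 by -0.19 (interval -0.67 to 0.288), and Jun by -0.19 (interval -0.46 to 0.0773). The interval of every one of these 9 genes includes 0. On 7-day replicate 1, which belongs to the arrays that stand apart, Gap43 was at 11.68 and Gal at 13.43, each the lowest of the earlier window.

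**Figure D3:**
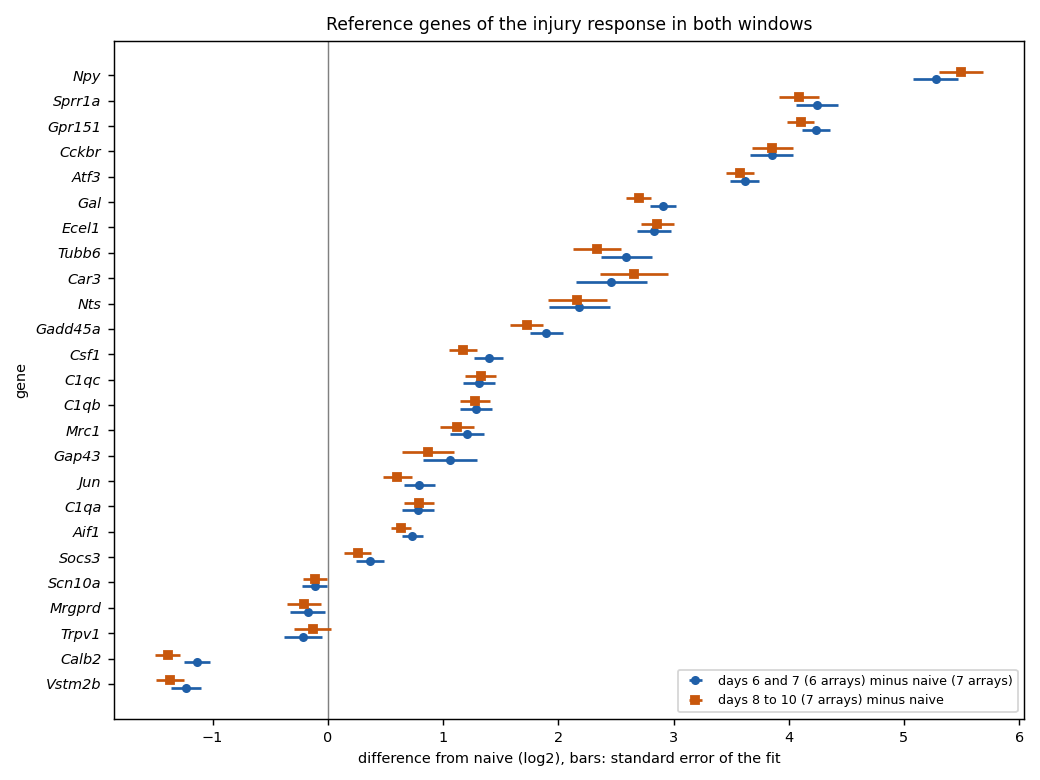
Difference from the 7 naive arrays (log2, horizontal axis) of 25 reference genes in days 6 and 7 (blue circles, 6 arrays) and days 8 to 10 (orange squares, 7 arrays), with standard errors of the fit as bars. The pairs lie close together, from Npy at 5.27 and 5.49 to Vstm2b at -1.23 and -1.37; the naive arrays are shared by both.

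Reference genes that lay below naive did so in both windows. Vstm2b, a gene for a membrane protein of the immunoglobulin superfamily, differed from naive by -1.23 in the earlier and -1.37 in the later window (log2). Calb2, which encodes the calcium binder calretinin of some large-fibre neurons, was at -1.13 and -1.39, with a difference between the windows of -0.26 ± 0.11 (unadjusted p = 0.029, adjusted p = 1). The nociceptor genes Scn10a (0.01 ± 0.11), Trpv1, the capsaicin receptor (0.08 ± 0.17), and Mrgprd, a receptor of nonpeptidergic nociceptors (-0.03 ± 0.15), lay near 0. None of the 8 sodium, 32 potassium, 13 calcium or 22 transduction channel genes measured passed. The lowest p-values among them belonged to Scn1a (0.29 ± 0.12, unadjusted p = 0.0236), a sodium channel of large-fibre neurons, Kcnk18, the background potassium channel TRESK (0.26 ± 0.12, unadjusted p = 0.0352), and P2rx6, a purinergic receptor subunit (0.19 ± 0.09, unadjusted p = 0.0331). Each of the 3 was below naive in both windows and less so in the later one by value.

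Myelin and Schwann cell genes leaned lower together, though none passed the test. Of 20 measured, 18 lay lower, and 9 (45%) had an unadjusted p under 0.05, all lower, against 1.35% of all genes that were lower at that p. The median difference was -0.21, with -0.32 for day 8 alone as the later window and -0.14 for days 9 and 10 alone. Steps within the windows were of like size: the list's median was 0.18 for day 7 minus day 6. For days 9 and 10 minus day 8 it was 0.20. Mag, the adhesion molecule of the inner myelin membrane, had values of 10.80, 10.91 and 11.30 as lowest, median and highest, and 10.34, 10.54 and 10.89 later (-0.39 ± 0.10, adjusted p = 0.635). Ugt8a and Fa2h, enzymes that make the galactolipids of myelin, differed by -0.42 ± 0.11 (adjusted p = 0.598) and -0.45 ± 0.13 (adjusted p = 0.748). Drp2, which ties the Schwann cell membrane to its skeleton, differed by -0.37 ± 0.12, and Mbp, myelin basic protein, by -0.20 ± 0.08. The windows of each of these genes overlapped at 1 or more arrays. Relative to naive, the list's median was 0.30 in the earlier window and 0.06 in the later one, so the later values were the ones near naive. Of 9 repair Schwann cell genes measured, 5 lay higher and 4 lower, with a median of 0.01, none past the threshold and 1 (11.1%) at an unadjusted p under 0.05. Among them Ncam1 differed by 0.10 ± 0.10 and Ngfr by 0.01 ± 0.07, while Jun and Gap43 were each at -0.19. The mean level of the list was lowest on 8-day replicates 1 and 3, at 10.53, and 10-day replicate 1, at 10.86, lay among the earlier arrays, which ranged from 10.79 to 11.07. Without the 4 arrays that stand apart the median of the myelin and Schwann cell list was -0.25.

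Neutrophil and mast cell genes had the lowest median of all 41 lists, -0.47, with 15 of 17 lower, 5 (29.4%) at an unadjusted p under 0.05 and none past the threshold. S100a8, a calcium-binding protein abundant in neutrophils, ranged from 12.72 to 13.01 with a median of 12.83, and later from 11.32 to 13.64 with a median of 11.86 (-0.76 ± 0.35, unadjusted p = 0.036). Of the 7 later arrays, 6 lay below every earlier one and 10-day replicate 1 lay above every earlier one. The same array was the highest of the later window for Lcn2, the iron-carrier binder lipocalin 2 (10.49, others at most 8.51), for Camp, the antimicrobial cathelicidin (10.74, others at most 9.08), and for the chitinase-like gene Chil3 (8.83, others at most 7.61). Without it the median of the neutrophil and mast cell list was -0.65. With day 8 alone as the later window that list's median was -0.80, and with days 9 and 10 alone -0.09. Prg2, the major basic protein of eosinophils, followed the same arrays, from 8.07 to 8.77 and later from 6.56 to 7.50 with 10-day replicate 1 at 9.66. Its difference was -0.93 ± 0.32 (unadjusted p = 0.00609), and without that array -1.30 (adjusted p = 0.0396). Prg2 was named after its values were seen. The mast cell genes of the list, Tpsb2 (0.01 ± 0.15) and Cma1 (0.00 ± 0.10), lay near 0. Among the neutrophil genes themselves, Csf3r, the receptor of granulocyte colony-stimulating factor (-0.08 ± 0.10), Mmp9, a gelatinase (-0.14 ± 0.14), and Elane, neutrophil elastase (-0.13 ± 0.12), differed little, and these 3 were named after their values were seen. Csf3r was above the detection level on 3 of 6 earlier and 2 of 7 later arrays, and Elane on 4 and 2. So near the limit of measurement, the small differences of Csf3r and Elane say little. S100a8 stood 1.00 above naive in the earlier window and 0.24 above it in the later one.

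**Figure D4:**
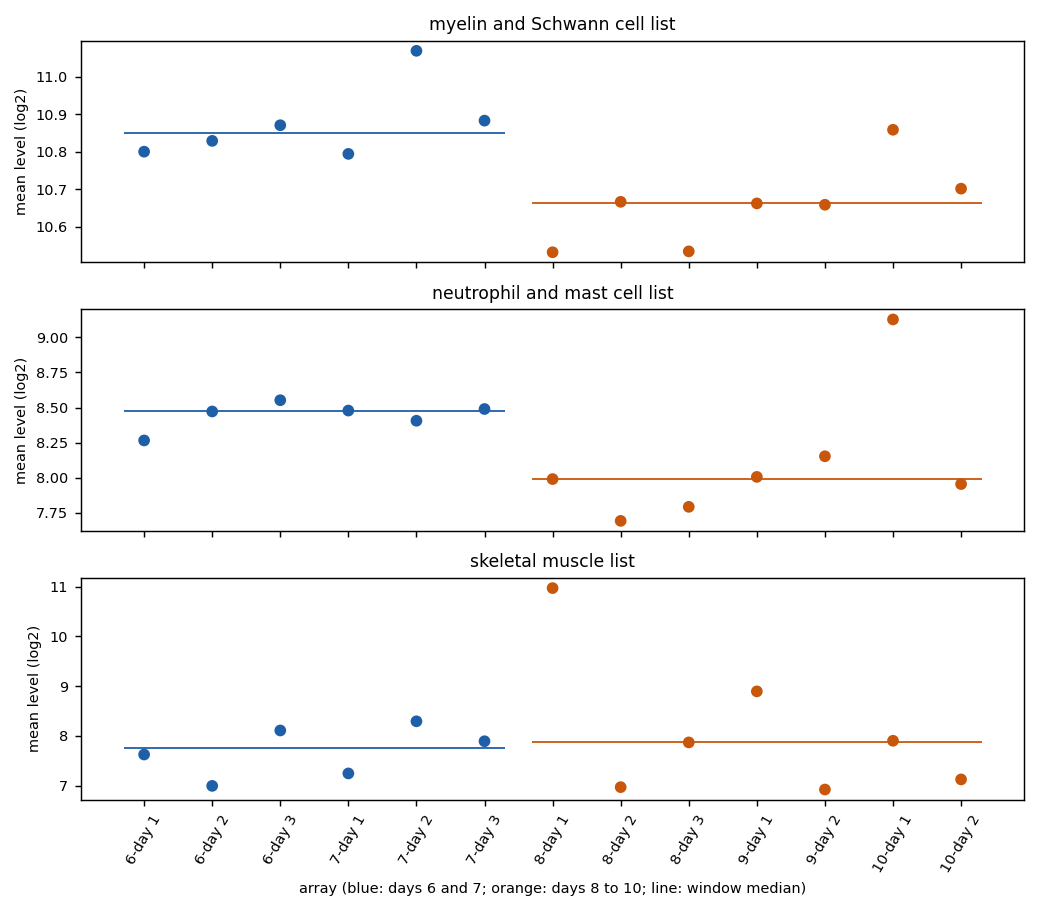
Mean level (log2 signal, vertical axes) of the measured genes of 3 lists on each of the 13 arrays, blue for days 6 and 7 and orange for days 8 to 10, with a line at each window's median. The neutrophil and mast cell mean lies between 8.27 and 8.55 on the earlier arrays and at most 8.15 on 6 later ones, with 10-day replicate 1 at 9.13; 8-day replicate 1 stands out in skeletal muscle at 10.97.

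Skeletal muscle genes had the highest median, 0.46, with none of 28 past the threshold or at an unadjusted p under 0.05. The median rested on 8-day replicate 1, where the mean muscle level was 10.97 while the other 12 arrays lay between 6.92 and 8.89. Without that array the median of the skeletal muscle list was 0.00, and without the 4 arrays that stand apart it was -0.47. Ppp1r3c, which brings protein phosphatase 1 to glycogen and is strongly expressed in muscle, was high on the same array (10.60, other later arrays 8.40 to 9.08). It had the largest difference of the genes that lay higher by smallest p, 0.74 ± 0.20 (adjusted p = 0.635), and 0.49 without 8-day replicate 1.

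Of the genes that lay higher in the later window, Angptl4 came nearest to the threshold. Angptl4, a secreted inhibitor of lipoprotein lipase, had a median of 9.74 in the earlier window (range 9.28 to 10.08) and 10.46 in the later (9.88 to 10.57), a difference of 0.60 ± 0.12 (adjusted p = 0.0816). Against naive it differed by -0.49 in the earlier window and 0.11 in the later. Lpl, lipoprotein lipase itself, differed by 0.52 ± 0.20 (unadjusted p = 0.0125). Lpl ranged from 9.13 to 9.73 in the earlier window and from 9.21 to 10.65 in the later. It is a member of the adipocyte list, whose mean was highest on 9-day replicate 1 (9.16) and next on 8-day replicate 1 (8.92). Tnc, the matrix protein tenascin C, had medians of 6.69 and 7.07 (0.41 ± 0.09, adjusted p = 0.137) and was above the detection level on 1 of 6 earlier and 5 of 7 later arrays. Its other kept probe gave 0.29, and 4 dimmer probes lay between -0.05 and 0.05. Thbs2, thrombospondin 2, differed by 0.34 ± 0.12 (unadjusted p = 0.0105). Timp3, a metalloproteinase inhibitor (-0.19 ± 0.09), and Ogn, a small proteoglycan (-0.25 ± 0.12), lay the other way, and the median of the 39 matrix genes was 0.00. Arhgef3, whose windows did not overlap, had medians of 10.33 and 10.60 (0.27 ± 0.07, adjusted p = 0.413). Against naive it differed by -0.42 in the earlier window and -0.15 in the later. Further down the same ranking, Sox2, a transcription factor of glia, differed by 0.34 ± 0.11, Hdac8, a histone deacetylase, by 0.30 ± 0.10, Ctrl, a chymotrypsin-like protease, by 0.27 ± 0.08, Tmem39a by 0.25 ± 0.08, and Sat1, which acetylates polyamines, by 0.21 ± 0.07. The other kept probe of Sox2, dimmer, gave -0.19, the opposite direction. Art3, of the ADP-ribosyltransferase family, was among the lower 10 (-0.33 ± 0.09, adjusted p = 0.635).

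Immune genes outside the granulocyte list were nearly level. Of 24 macrophage and microglia genes none passed, and the median was -0.02. Cd163, a scavenger receptor of resident macrophages, had the smallest p (medians of 7.97 and 7.60, -0.47 ± 0.15, unadjusted p = 0.00444). The mannose receptor gene Mrc1 (-0.09 ± 0.15) and the complement genes C1qa (0.01 ± 0.14), C1qb (-0.01 ± 0.14) and C1qc (0.01 ± 0.14) lay near 0, all 4 still above naive in both windows by 0.78 to 1.33. Of 8 genes of antigen presentation by MHC class II, 5 lay lower and 3 higher, with a median of -0.02, whose sign was kept in 21 of 35 alternatives. Of them 2 (25%, against 2.75% of all genes) had an unadjusted p under 0.05: H2-Ab1 (0.34 ± 0.13) and Cd74, the invariant chain (0.30 ± 0.12). H2-Ab1 was at 10.45, 10.35 and 10.41 on the 6-day arrays, and on every other array of the 13 at 10.59 or higher, so the earlier window was not uniform. Ccl12, a monocyte chemokine, lay lower (-0.45 ± 0.19, unadjusted p = 0.0261), and Il1b, the cytokine interleukin 1 beta, higher near the detection level (0.33 ± 0.12, unadjusted p = 0.00877).

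Immediate-early genes, which answer neuronal activity and stress within minutes, lay higher in 10 of 12 cases, with a median of 0.10 and none past the threshold. Fos had medians of 8.04 and 8.83 (0.67 ± 0.24, unadjusted p = 0.00946), and Egr1 of 10.16 and 10.38 (0.39 ± 0.17, unadjusted p = 0.0324). Fos was highest on 8-day replicate 3, at 9.33, and its windows overlapped. Egr2, which also drives myelin genes, differed by -0.28 ± 0.19. In the glucocorticoid and systemic stress list 6 of 17 (35.3%, against 2.75% of all genes) had an unadjusted p under 0.05 and none passed. Of these 2 lay higher and 4 lower, and the list's median was -0.03. The 6 include Angptl4 and Lcn2, given above, Sult1a1, a sulfotransferase (-0.40 ± 0.12), and Cdkn1a, a cell cycle inhibitor (-0.24 ± 0.10). Chaperones leaned higher in a few members only, with Hspa1a at 0.36 ± 0.13 and Dnajb1 at 0.25 ± 0.11, both heat shock genes, and Creld2, of the endoplasmic reticulum stress response, at 0.30 ± 0.10. The amino acid transporter gene Slc7a5 differed by -0.28 ± 0.10. Among endothelial genes the transporters Slco1a4 (-0.36 ± 0.12) and Slc2a1, the glucose carrier of the barrier (-0.21 ± 0.08), lay lower.

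Across the 41 lists Dbp was the only member of any list past the threshold. The medians of 37 lists lay within 0.11 of 0, and the other 4 were the clock, myelin, neutrophil and skeletal muscle lists described above. The 67 oxidative phosphorylation genes had a median of 0.00 and the 52 ribosomal protein genes of -0.04.

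**Figure D5:**
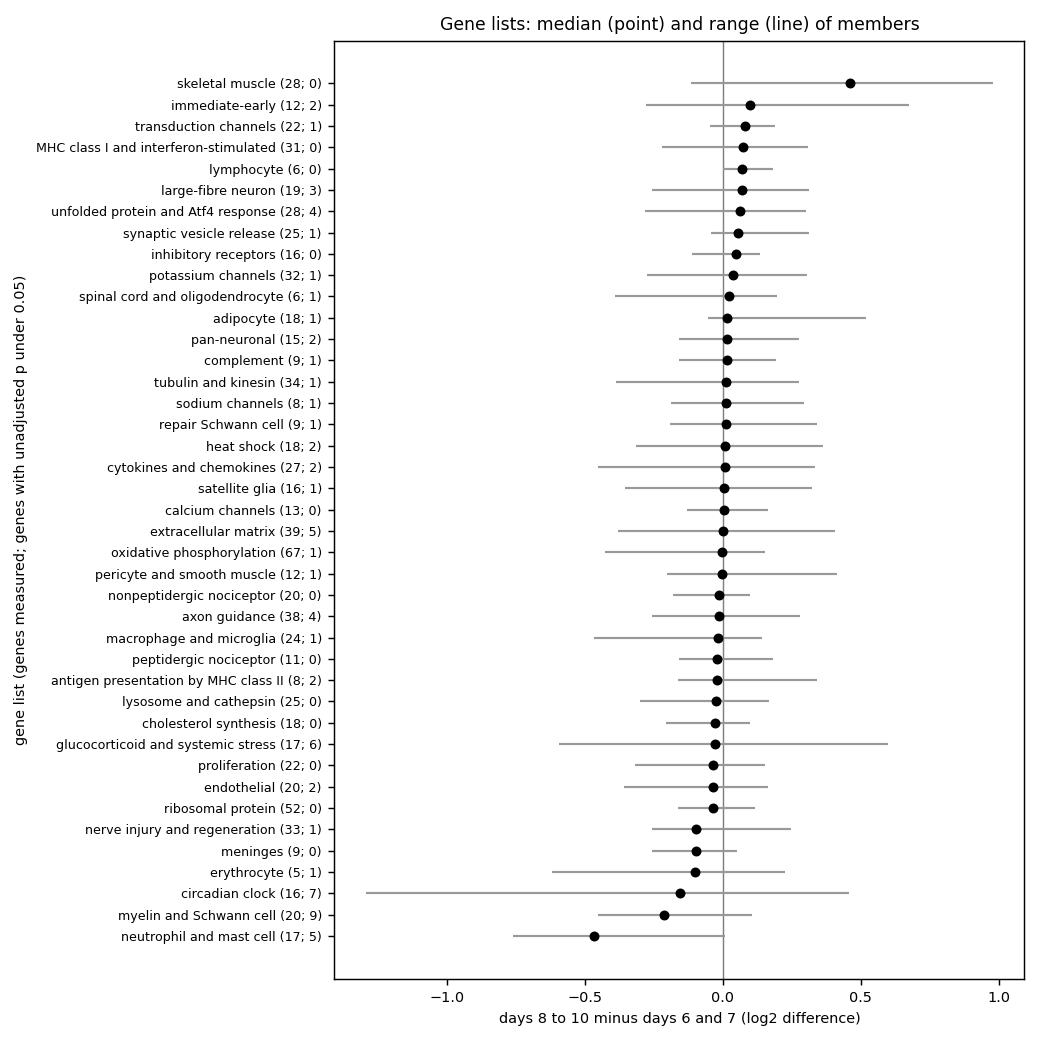
Difference between the windows (log2, horizontal axis) of the members of each of 41 gene lists: the point is the median and the line runs from the lowest to the highest member, with the number of genes measured and of those at an unadjusted p under 0.05 in parentheses. Neutrophil and mast cell genes have the lowest median, -0.47, and skeletal muscle genes the highest, 0.46.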

How the data were processed

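RNA of 40 dorsal root ganglion samples was hybridised as biotin-labelled cRNA to Illumina bead arrays, per the labels' protocols. Per the file headers, the deposited table holds for each array and each of 25697 probes an intensity (its signal) and a detection p-value. A further deposited table, the authors' own, gives log2 values within 0.0382 of the log2 of quantile-normalized signals, and served as an alternative. The detection p-values deposited for 37 of 40 arrays do not follow the same array's signal, so they were not used per array.

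Signals were background-corrected (normexp, offset 50), quantile-normalized over 40 arrays and brought to log2. The detection level, 6.85 (6.82 to 6.88), is the mean lowest value with a detection p under 0.05 on the 3 arrays whose column follows their signal. The 15462 probes that exceeded it on 3 or more arrays were kept. Names came from the platform's probe table (23978 probes with 1 symbol, 1719 with none, 23962 updated through Entrez numbers to RefSeq GRCm38.p6), and each of 10519 genes took its brightest kept probe, 2819 of them from several.

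Genes were tested with limma 3.58.1 in R 4.3.3, with 1 mean per labelled time over all 40 arrays, trended variances and BH adjustment over all genes at 0.05. The contrast is the mean of 7 later arrays minus the mean of 6 earlier ones. Differences from naive are given as values only. The fit was tested on simulated data with independent noise for each gene and array. Those data hold no spread between days and no arrays that stand apart, so the test does not cover either. Named genes are the 10 largest differences per direction past the threshold, filled to 10 with the smallest p among the rest, reference genes of the injury response, and up to 4 members of each list. All comparisons, lists and reference genes were chosen with earlier results of these data known. Lists are described by counts and medians, with no set test.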

Additional observations from a re-analysis of the deposited data

Results flagged for a closer look

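Single arrays lay far from the rest of their window in 18 of 212 gene and window groups (8.49%) by Dixon's test at the 95% level. The level's 1 in 20 is not a chance rate for these groups. Some of the genes were named after their values were seen, genes vary together across arrays, and each window pools several days. Of the 18 flagged groups, 8 were on 10-day replicate 1. That array was high in the later window for Ciart (7.76, others 6.89 to 7.18), Per2 (9.11, others 8.45 to 8.66), Chil3 (8.83), Lcn2 (10.49), Mpo, a neutrophil peroxidase (7.91, others 6.22 to 6.89), Camp (10.74), Prg2 (9.66) and Ogn (12.51, others 12.20 to 12.33). A further 5 were on 7-day replicate 1, low in the earlier window for Bhlhe40 (8.95, others 9.59 to 9.80), Gal (13.43), Gap43 (11.68), Nts, the neuropeptide neurotensin (8.80, others 10.10 to 10.68), and Tubb6, a beta tubulin (10.55, others 11.46 to 11.79). 8-day replicate 1 was high for Ppp1r3c (10.60) and Tcap, a muscle sarcomere gene (10.41, others 6.89 to 8.18). 8-day replicate 2 was low for Socs3, a cytokine signal inhibitor (8.58, others 8.96 to 9.22), 7-day replicate 2 high for Ogn (12.86, others 12.44 to 12.55), and 6-day replicate 3 high for Elane (7.27, others 6.80 to 6.94).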

How the results depend on the processing

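The main comparison called 2 genes. It called 2 without background correction, with the authors' deposited log2 table, without a filter on dim probes, with a stricter one, with an indicator of the 4 arrays that stand apart and without 8- and 9-day replicate 1. It called 3 with neqc, with the mean of a gene's probes, with 10-day replicate 2 counted at 9 days and without the 4 arrays that stand apart, that count, the indicator and the joint omissions being chosen after seeing the data. It called 1 with the 13 arrays and 1 mean per time, 0 with the 13 arrays as 2 pooled groups, 0 with time as a random block in them, 4 with robust variances and array weights, 5 with the muscle mean as a covariate, 0 against day 7 alone, 3 against day 6 alone, 2 for day 8 alone, 3 for days 9 and 10 alone and 5 with every time weighted equally. Leaving out 1 replicate gave 1 (without 6-day replicate 3) to 5 genes (without 10-day replicate 1), and 4 without 7-day replicate 1. Dbp kept its sign in all 35 alternatives and its call in 31, including all 13 that leave out 1 replicate. It lost its call with the 13 arrays as 2 pooled groups, with or without time as a random block. It also lost it against day 7 alone and with days 9 and 10 alone as the later window. Cstdc4 kept its sign in 35 and its call in 27. Ciart passed in 8 alternatives, Angptl4 in 7, Nr1d1 in 5, Tnc in 4, Reg1 in 2 and Prg2 in 1. No result changed direction past the threshold.

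The F-test among 6 to 10 days called 2 genes and 4 with neqc, without background correction or with the authors' table, 3 without a filter, 1 with the 13 arrays alone, 7 with the muscle covariate, 8 with 10-day replicate 2 counted at 9 days, and 1 without the 4 arrays, with their indicator, or without 8- and 9-day replicate 1. Leaving out 1 replicate gave 1 to 4. The cause of these changes was not tested. The comparisons of day 7 with day 6 and of days 9 and 10 with day 8 called 0 in limma under every alternative run. Same-numbered samples of different times had correlated deviations over 0.1 in 15 of 23 pairs (-0.146 to 0.699, median 0.366), and other pairs in 8 of 44 (median -0.21). Deviations within a time sum to 0, so the 2 kinds of pair are tied, and the negative median of the others adds no evidence. Since not every same-numbered pair exceeded 0.1, the numbers were not taken as pairing. Of the 13 arrays, 11 correlated best with one of their own number. That count is partly tied too, since 9 and 10 days have 2 arrays each, whose deviations mirror each other. The 4 arrays that stand apart also share a number. The count is therefore no more than a weak hint. With the replicate block, the main comparison called 3 genes (Ciart joined) and the F-test 1 (Dbp, with Cstdc4 lost), and with a block by sample-name run 2 and 1. The number of arrays limits the precision, and 3 later arrays but 1 earlier one belong to the 4 that stand apart.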
